A study of Mus musculus with 48 samples.

Results

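Genes of the cholesterol synthesis pathway were followed through the day in the livers of nono-/- and wild type mice. They are Srebf2, Insig1, Hmgcs1, Idi1, Fdps, Sqle and Cyp51, found by their symbols in the exon and intron tables, and they make up 7 of the 24453 genes of the exon table and 7 of the 20771 of the intron table. None of the 7 encodes a protein that takes up LDL, so the values below concern synthesis and its control, and genes of sterol uptake appear only as a list beside them. Sampling covered 1 day in steps of 2 h, at 12 times counted from lights on (zeitgeber time, ZT), with livers from nono-/- mice, which lack NONO, a nuclear protein that binds RNA and DNA and sits in paraspeckles, and from wild type mice. Both genotypes were C57BL/6 and 14 weeks old, with lights on for 12 h and off for 12 h, and for 1 week food was given in the dark phase alone. Livers of 2 mice were pooled per time and genotype, and each pool gave 1 library of total RNA and 1 of nuclear RNA, so there were 4 groups of 12 libraries: nono-/- total RNA, wild type total RNA, nono-/- nuclear RNA and wild type nuclear RNA. How the nono-/- allele was made and the sex of the mice are not given in the sources used here.

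Cholesterol is built from acetyl-CoA through the mevalonate pathway and then through squalene and lanosterol. The transcription factor SREBP2, the product of Srebf2, waits in the membrane of the endoplasmic reticulum; when sterols run low the escort protein SCAP carries it to the Golgi, where proteases free the part that enters the nucleus and switches on the enzymes of the pathway, Srebf2 itself and Insig1. The product of Insig1 holds SCAP back when sterols are plentiful, and in rodent liver the synthesis of cholesterol is known to run higher in the dark, when the animals eat.

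In mm10 Srebf2 lies at chr15:82147269-82204960 and holds the miRNA gene Mir33 on its own strand, Insig1 at chr5:28071412-28078662, Hmgcs1 at chr13:119690351-119708260, Idi1 at chr13:8885606-8892396 and Sqle at chr15:59315092-59331193, all on the plus strand. Fdps lies at chr3:89093588-89101967 and Cyp51 at chr5:4080674-4104697, on the minus strand. To show letters that SREBP2 and its partner factors are known to bind, promoters were searched. RefSeq sequences of the 250 bases before the start (GRCm38.p6) were at hand for 5 of the 7 genes: Srebf2, Insig1, Hmgcs1, Idi1 and Cyp51. Both strands were searched for the sterol element TCACNCCA, for CCAAT, for GGGCGG and for the E-box CACGTG, the letters bound by clock factors and by SREBP proteins. Printed here are the promoters that held the sterol element, Srebf2 at chr15:82147019-82147268 and Hmgcs1 at chr13:119690101-119690350, and the promoter that held an E-box, Insig1 at chr5:28071162-28071411, all on the plus strand. Capitals mark the sterol element and the E-box.
Srebf2: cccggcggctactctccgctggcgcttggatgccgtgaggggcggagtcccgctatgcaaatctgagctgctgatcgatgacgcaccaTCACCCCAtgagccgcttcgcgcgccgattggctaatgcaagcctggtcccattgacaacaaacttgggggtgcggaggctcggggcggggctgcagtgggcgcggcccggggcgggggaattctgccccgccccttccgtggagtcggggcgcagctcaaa
Hmgcs1: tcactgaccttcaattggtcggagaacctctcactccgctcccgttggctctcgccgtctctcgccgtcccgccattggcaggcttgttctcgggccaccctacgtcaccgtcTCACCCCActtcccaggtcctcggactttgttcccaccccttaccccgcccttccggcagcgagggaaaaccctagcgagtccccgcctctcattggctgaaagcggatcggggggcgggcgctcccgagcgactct
Insig1: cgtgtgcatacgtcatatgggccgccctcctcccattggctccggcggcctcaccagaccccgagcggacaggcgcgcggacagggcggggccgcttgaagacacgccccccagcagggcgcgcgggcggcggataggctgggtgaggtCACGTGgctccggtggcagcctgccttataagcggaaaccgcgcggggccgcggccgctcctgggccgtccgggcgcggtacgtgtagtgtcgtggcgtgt
The sterol element lay at -162 to -155 from the start of Srebf2 and at -137 to -130 from that of Hmgcs1, in both as TCACCCCA, and 3.58% of 27025 mouse promoters held it in a window of this length. The E-box lay at -101 to -96 of Insig1 and was found in 6.05% of all promoters. CCAAT was found in all 5 promoters of the genes and in 34.46% of all promoters, and GGGCGG in all 5 and in 32.94%. The sterol element and CCAAT did not overlap in these promoters. A match is a description of letters, and a missing match says only that the letters are not in this window.

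Nono itself gave 0 to 0.0910 FPKM of exon signal in nono-/- total RNA and 0 to 0.0320 FPKM in nono-/- nuclear RNA, against 8.74 to 10.7 FPKM in wild type total RNA and 2.05 to 2.73 FPKM in wild type nuclear RNA, so every library matched the genotype on its label. FPKM are reads per kilobase of exon or intron, scaled to the depth of the library, and the depth worked out from the steps between low values ran from 9.91 to 28.94 M reads. Introns took 18.5% ± 2.41 of the reads of nono-/- total RNA and 22.1% ± 1.72 of those of wild type total RNA (SD, n = 12 each), and in nuclear RNA 74.6% ± 1.16 and 73.2% ± 2.14. The 6 hepatocyte markers summed to 37148 to 57428 FPKM in nono-/- and 34579 to 53288 FPKM in wild type total RNA. The 8 Kupffer cell markers summed to 87.4 to 214 FPKM (median 141) in nono-/- and 65.1 to 173 FPKM (median 114) in wild type total RNA, with none at 0. Of the 8, 5 (Clec4f, Adgre1, Timd4, Vsig4 and Cd5l) were higher in exons of nono-/- total RNA (limma adjusted p = 0.0182 to 0.0463), where 4.49% of all genes tested were. Of the liver endothelial cell markers 0 of 6 passed there, and 1 of 4 tested stellate cell markers was higher. The part of these cell types in the results below was not tested. In bulk RNA, fewer cells of a type and less RNA per cell cannot be told apart.

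Exons of total RNA report mainly on mature message. There, Srebf2 fell in nono-/- livers, and the other 6 genes did not pass the test. Srebf2 exons had 1.14 FPKM at the lowest, 1.68 at the median and 3.16 at the highest in the 12 nono-/- libraries, against 0.887, 2.27 and 6.73 FPKM in the 12 wild type libraries. The groups overlap, nono-/- was lower at 10 of 12 times, and the gap was widest in the dark: at ZT16, ZT20 and ZT22 nono-/- livers had 1.19, 2.29 and 2.94 FPKM against 3.04, 5.03 and 6.73 FPKM in wild type. At ZT6 and ZT8, in the light, nono-/- was the higher of the pair, with 1.97 and 1.64 FPKM against 1.47 and 0.887 FPKM. These are 63 to 250 reads per library in nono-/- and 77 to 468 in wild type.

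The genotype effect over the day, from a limma model of log2 values with a daily curve for each genotype, was -0.49 ± 0.15 (log2 ± SE) for Srebf2, 1.40-fold lower in nono-/-, with an adjusted p of 0.0435 over all genes. In this comparison 11.1% of the 11352 genes tested passed the threshold of 0.05, 4.49% higher and 6.57% lower in nono-/-, so 1 of 7 is near the share of all genes. Of all genes 510 were called higher and 746 lower, and with the values as deposited 762 higher and 539 lower. The call is close to the threshold: it was lost when any time other than ZT8 or ZT18 was left out, with changes between -0.54 and -0.41 and adjusted p-values up to 0.102. It was also lost with no filter on low genes (adjusted p = 0.0717), with the values as deposited (-0.47, adjusted p = 0.0861), and with a covariate for the intron share of the reads (-0.59, adjusted p = 0.274).

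**Figure D1:**
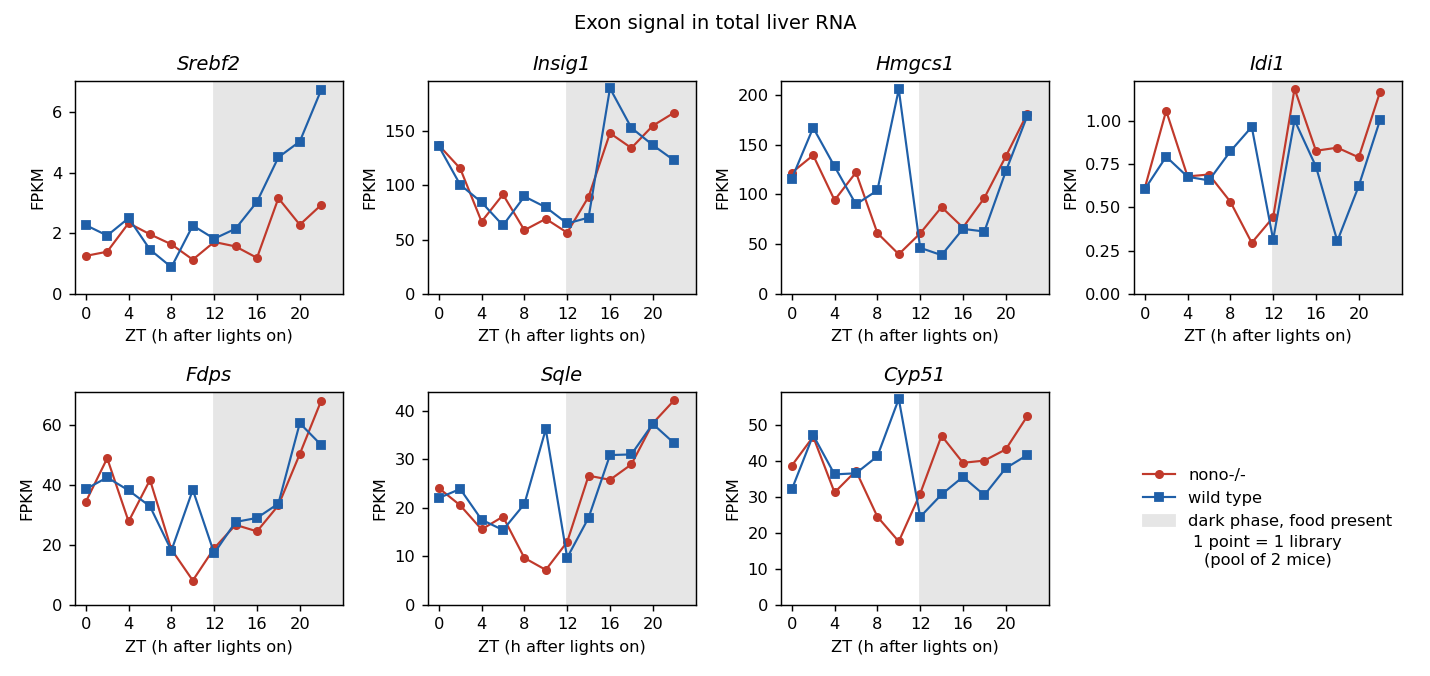
Exon FPKM in total liver RNA (vertical axis) by zeitgeber time (horizontal axis, ZT in hours after lights on) for the 7 genes; red circles are nono-/- libraries, blue squares wild type libraries, 1 point per library of a pool of 2 mice, and grey marks the dark phase. Srebf2 reaches 3.16 FPKM at most in nono-/- and 6.73 FPKM in wild type. At ZT10 Hmgcs1, Fdps, Sqle and Cyp51 are at their lowest in nono-/-, and Hmgcs1 and Cyp51 at their highest in wild type.

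Insig1 was the second regulator. Its exons in total RNA had 56.5, 104 and 167 FPKM (lowest, median, highest) in nono-/-, against 63.1, 95.1 and 189 FPKM in wild type, and the ranges nearly coincide. The effect was -0.04 ± 0.13 (log2 ± SE, limma adjusted p = 0.882), with nono-/- higher at 6 of 12 times and lower at 6.

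Hmgcs1 encodes the cytosolic HMG-CoA synthase, which makes the substrate of the rate-limiting step of the mevalonate pathway, and its exons had the highest levels of the 5 enzymes per length. They had 40.0, 95.4 and 181 FPKM (lowest, median, highest) in nono-/- total RNA, against 39.1, 110 and 206 FPKM in wild type. The lowest nono-/- value and the highest wild type value were from the same time, ZT10. The effect over the day was -0.10 ± 0.18 (log2 ± SE, limma adjusted p = 0.773) and ran from -0.22 to 0.09 when each time was left out in turn, so its sign rests on single times.

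Cyp51, the lanosterol demethylase, had 17.6, 39.1 and 52.4 FPKM in nono-/- total RNA, against 24.4, 36.4 and 57.2 FPKM in wild type. Sqle, the squalene epoxidase, had 7.20, 22.3 and 42.2 FPKM in nono-/-, against 9.72, 23.0 and 37.3 FPKM in wild type. Neither differed past the threshold, with effects of -0.05 ± 0.12 for Cyp51 (limma adjusted p = 0.816) and -0.23 ± 0.17 for Sqle (limma adjusted p = 0.408).

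Fdps, which makes farnesyl diphosphate, had 8.13, 30.6 and 68.3 FPKM in nono-/- total RNA, against 17.2, 36.1 and 60.8 FPKM in wild type. Idi1, the isomerase of isopentenyl diphosphate, was far lower, with 0.296, 0.740 and 1.19 FPKM in nono-/-, against 0.306, 0.707 and 1.01 FPKM in wild type. Their effects were -0.22 ± 0.15 (limma adjusted p = 0.379) and 0.06 ± 0.18 (limma adjusted p = 0.876). Exon values of both may be uncertain: 86.42% of the 50-base stretches of the longest coding Fdps transcript and 30.52% of those of Idi1 also occur in transcripts of other genes, mostly Gm43738 and Gm13502. Whether those transcripts lie elsewhere in the genome or overlap the same place was not checked. The share was 13.59% for Hmgcs1, 3.17% for Cyp51, 2.49% for Insig1 and 0 for Srebf2 and Sqle. With a covariate for the exon share of the reads Fdps passed, at -0.39 (adjusted p = 0.0471).

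At ZT10, 2 h before lights off, the 5 enzymes were lower in nono-/- livers and their levels stood far apart. Hmgcs1 had 40.0 FPKM in the nono-/- library and 206 FPKM in the wild type library, the scaled log2 difference being -2.17. Sqle had 7.20 and 36.2 FPKM (-2.13), Fdps 8.13 and 38.5 FPKM (-2.04), Cyp51 17.6 and 57.2 FPKM (-1.51), and Idi1 0.296 and 0.965 FPKM (-1.28), each with nono-/- before wild type. Insig1 exons differed little there, with 69.2 and 79.8 FPKM (-0.02). Hmgcs1 and Cyp51 had their highest wild type values at ZT10. Sqle (37.3 FPKM) and Fdps (60.8 FPKM) had theirs at ZT20 and Idi1 (1.01 FPKM) at ZT22. The wild type values of Sqle and Idi1 at ZT10 were close to these. The part of a high wild type pool in the gap was not tested. At ZT8, ZT10 and ZT12 the scaled log2 level of Hmgcs1 was 6.83, 7.66 and 5.51 in wild type and 5.82, 5.49 and 5.89 in nono-/-. That of Sqle was 4.51, 5.16 and 3.26 in wild type and 3.17, 3.03 and 3.66 in nono-/-. The nono-/- library of ZT10 stands apart from the other nono-/- total RNA libraries in its makeup. Exons took 63.2% of its reads, the lowest share of the 24 total RNA libraries (68.0% to 73.6% in the other nono-/- libraries). Introns took 23.9%, the highest of nono-/- total RNA (15.8% to 21.4% in the others). The wild type library of ZT8 had a similar makeup, with 64.3% exons and 24.6% introns. The part of library makeup in the differences at ZT10 was not tested. Without ZT10 the effects of the 5 enzymes over the day lay between -0.07 (Sqle) and 0.16 (Idi1), and none passed.

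At ZT8 all 5 enzymes were again lower in nono-/-, by log2 differences of -1.34 (Sqle) to -0.21 (Fdps), and at ZT12 all 5 were higher in nono-/-, by 0.12 (Fdps) to 0.40 (Sqle). At ZT10 the introns of the enzymes in nuclear RNA of the same pools differed by -1.43 (Fdps), -1.13 (Sqle), -0.76 (Hmgcs1), -0.33 (Cyp51) and -0.16 (Idi1). There was 1 pool per genotype at each time, so these single-time differences have no replicate check and no test was made.

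In exons of nuclear RNA, Srebf2 and Fdps fell in nono-/- and Insig1 rose, while Hmgcs1, Sqle and Cyp51 did not pass. Idi1, with 3 to 54 reads in nono-/- and 3 to 22 in wild type libraries, was under the filter, so 6 of 7 genes were tested. In this comparison 34.3% of 10500 genes passed, 15.9% higher and 18.5% lower in nono-/-, and 3 of 6 is to be read against that share. These were 1665 higher and 1938 lower, and with the values as deposited 380 higher and 3398 lower. In the same comparison 2 of 6 hepatocyte markers fell (median of the list -0.29) and 4 of 7 tested Kupffer cell markers rose (median 0.46). Of the liver endothelial cell markers 1 of 6 fell (median -0.11), and of the stellate cell markers 1 of 4 tested rose (median 0.03). The hepatocyte markers summed to 673 to 2400 FPKM in nono-/- and 1338 to 2741 FPKM in wild type nuclear RNA, and the Kupffer cell markers to 16.8 to 39.5 FPKM in nono-/- and 14.0 to 43.9 FPKM in wild type, with none at 0. Their part in the nuclear results was not tested.

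Nuclear Srebf2 exons had 0.342, 0.944 and 1.56 FPKM (lowest, median, highest) in nono-/-, against 1.01, 1.44 and 2.77 FPKM in wild type. The groups overlap, with nono-/- lower at 10 of 12 times. The effect was -0.50 ± 0.13 (log2 ± SE, limma adjusted p = 0.00830), 1.41-fold lower, and it passed with any 1 time left out.

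Nuclear Fdps exons had 0.364, 2.55 and 7.05 FPKM in nono-/-, against 2.43, 3.91 and 12.5 FPKM in wild type, with nono-/- lower at 11 of 12 times. The nono-/- libraries from ZT2 to ZT12 lay between 0.364 and 1.72 FPKM and all wild type libraries at 2.43 FPKM or above. The effect was -0.78 ± 0.22 (limma adjusted p = 0.0127), 1.72-fold lower, and it passed with any 1 time left out.

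Nuclear Insig1 exons had 12.9, 23.3 and 54.8 FPKM in nono-/-, against 9.42, 20.1 and 65.3 FPKM in wild type, with nono-/- higher at 10 of 12 times and the ranges overlapping almost wholly. The effect was 0.48 ± 0.17 (limma adjusted p = 0.0312), 1.39-fold higher. It was lost when ZT2, ZT6, ZT10, ZT18, ZT20 or ZT22 was left out (0.42 to 0.51 over all 12, adjusted p up to 0.0917) and with no filter (adjusted p = 0.0507). With the values as deposited, which shift the median of all genes by -0.20 on the log2 scale, it was 0.27 (adjusted p = 0.216). With the intron or the exon share of the library as a covariate, none of the 6 genes passed, the lowest adjusted p being that of Srebf2 (0.0718 and 0.0794); the part of these shares in the result was not tested further.

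Nuclear Hmgcs1 exons had 3.37, 9.30 and 22.9 FPKM in nono-/-, against 3.33, 9.90 and 28.4 FPKM in wild type. Nuclear Cyp51 exons had 2.67, 4.54 and 10.2 FPKM in nono-/-, against 3.33, 5.22 and 8.56 FPKM in wild type, and those of Sqle 1.15, 3.89 and 7.62 FPKM in nono-/-, against 1.26, 3.92 and 7.23 FPKM in wild type. The ranges of these 3 genes overlap widely, and none passed, with effects of 0.18 ± 0.22 for Hmgcs1, 0.19 ± 0.19 for Cyp51 and 0.06 ± 0.23 for Sqle (log2 ± SE, limma adjusted p = 0.533 for Hmgcs1, 0.433 for Cyp51 and 0.851 for Sqle).

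**Figure D2:**
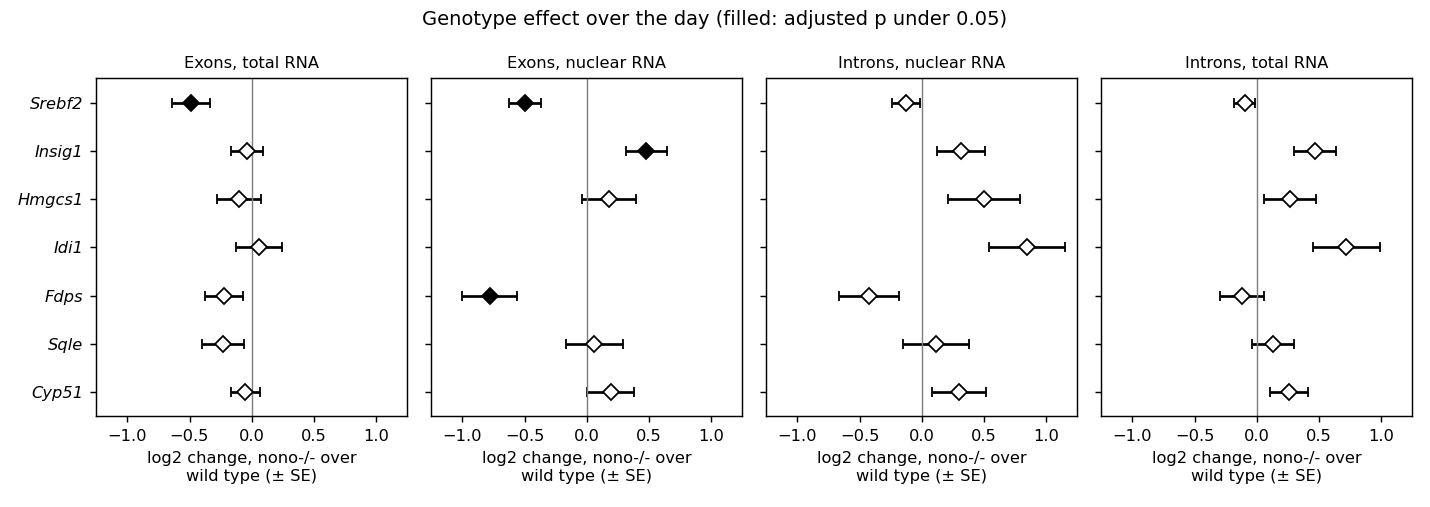
Genotype effect over the day (horizontal axis, log2 change of nono-/- over wild type, bars ± SE, n = 12 pools per genotype) for the genes (vertical axis) in 4 measures; filled diamonds have a limma adjusted p under 0.05. Srebf2 lies at -0.49 and -0.50 in both exon panels and near 0 in both intron panels.

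Introns of nuclear RNA report mainly on transcripts not yet spliced. No gene passed for genotype there: 0 of 7 in nuclear introns, where 17.9% of 12055 genes passed, 8.48% higher and 9.46% lower in nono-/-. In introns of total RNA it was 0 of 7, with 16% of 9422 genes called, 7.11% higher and 8.87% lower. The 670 higher and 836 lower calls became 102 and 3444 with the values as deposited. Kupffer cell markers rose for 7 of 7 tested in total RNA introns and 4 of 8 in nuclear introns, and 2 of 3 tested stellate cell markers rose in total RNA introns. In nuclear introns 2 of 6 hepatocyte markers fell (median of the list -0.05) and 2 of 6 liver endothelial cell markers fell (median -0.19). In total RNA introns 1 of 5 tested liver endothelial cell markers fell (median -0.03). The part of these cell types in the intron results was not tested.

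Idi1 stood out by size. Its nuclear introns had 1.04, 3.34 and 10.7 FPKM in nono-/-, against 0.399, 2.25 and 4.12 FPKM in wild type, with nono-/- higher at 10 of 12 times. The gap was widest at ZT18 and ZT20, where nono-/- livers had 9.72 and 10.7 FPKM and wild type livers 2.90 and 2.53 FPKM. The effect was 0.85 ± 0.30 (limma adjusted p = 0.0571). It passed without ZT0, ZT8 or ZT12 and with each time as a block (adjusted p = 0.0150), and in total RNA introns the effect of 0.72 ± 0.27 (adjusted p = 0.0700) passed with the block too (adjusted p = 0.0185).

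Nuclear Insig1 introns had 11.8, 21.7 and 65.5 FPKM in nono-/-, against 8.58, 19.7 and 65.6 FPKM in wild type, higher in nono-/- at 9 of 12 times (0.31 ± 0.19, limma adjusted p = 0.259). With the block the same effect passed (adjusted p = 0.0398), as did that of total RNA introns (0.47 ± 0.17, adjusted p = 0.0619, with the block 0.00585).

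Nuclear Srebf2 introns had 0.474, 0.958 and 1.45 FPKM in nono-/-, against 0.743, 1.07 and 1.40 FPKM in wild type, and the effect was -0.12 ± 0.11 (limma adjusted p = 0.458). In total RNA introns it was -0.10 ± 0.08 (limma adjusted p = 0.464), and with the values as deposited -0.30 (adjusted p = 0.0254), where the median of all genes shifts by -0.21. The other 4 enzymes had nuclear intron effects from -0.42 ± 0.24 (Fdps, limma adjusted p = 0.217) to 0.50 ± 0.29 (Hmgcs1, limma adjusted p = 0.229), and none of them passed.

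Nuclear Hmgcs1 introns had 0.927, 3.65 and 11.2 FPKM (lowest, median, highest) in nono-/-, against 0.856, 2.70 and 10.44 FPKM in wild type. At ZT18 and ZT20 they had 11.1 and 11.2 FPKM in nono-/-, against 4.76 and 4.72 FPKM in wild type. The lowest library was at ZT12 in both genotypes, and nono-/- was the higher at 9 of 12 times.

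Nuclear Fdps introns had 0.960, 2.80 and 7.61 FPKM in nono-/-, against 1.70, 3.88 and 12.4 FPKM in wild type. The wild type library at ZT22 was the highest of both genotypes. Sqle had 0.499, 1.64 and 3.16 FPKM in nono-/- and 0.405, 1.51 and 2.31 FPKM in wild type nuclear introns, and Cyp51 0.821, 1.57 and 3.76 FPKM in nono-/- and 0.783, 1.56 and 2.69 FPKM in wild type. The medians of Sqle and Cyp51 lay close together, and their highest libraries were at ZT18 in nono-/-, against ZT16 and ZT8 in wild type.

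**Figure D3:**
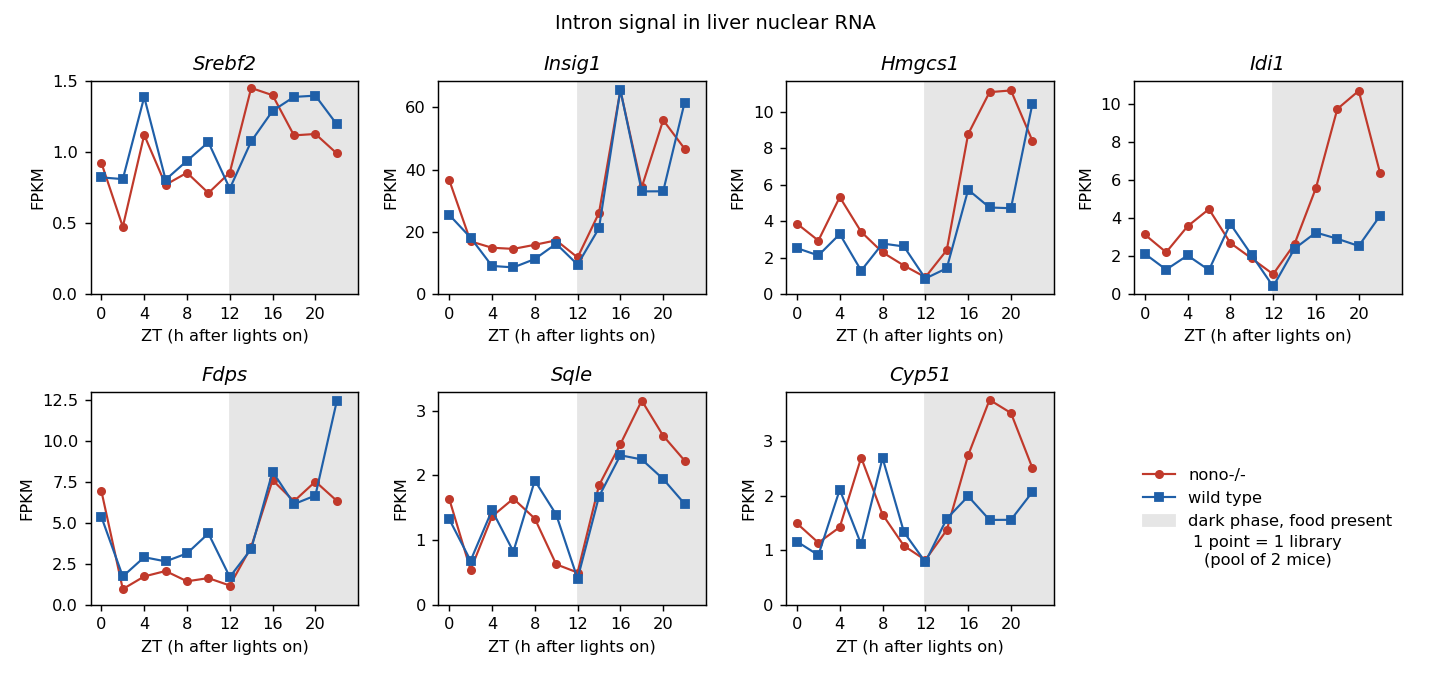
Intron FPKM in liver nuclear RNA (vertical axis) by zeitgeber time (horizontal axis, ZT in hours after lights on); red circles are nono-/- and blue squares wild type libraries, 1 point per pool of 2 mice, grey marks the dark phase. Insig1 reaches 65.5 FPKM in nono-/- and 65.6 FPKM in wild type, both at ZT16, and Idi1 reaches 10.7 FPKM in nono-/- and 4.12 FPKM in wild type.

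In exons of total RNA the 5 rhythms called in nono-/- and 3 of the 4 called in wild type had fitted peaks in the dark. In nono-/- exons of total RNA, 5 of 7 genes passed the test for a 24 h rhythm (Insig1, Hmgcs1, Fdps, Sqle and Cyp51), where 29.6% of all genes passed. In wild type 4 of 7 passed (Srebf2, Insig1, Hmgcs1 and Fdps), where 31.8% of all genes passed, and 2 of 7 with a second harmonic in the curve.

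The brake, Insig1, peaked at ZT20.5 in nono-/- (fitted peak over trough 2.69-fold, limma adjusted p = 0.00122) and at ZT20.1 in wild type (2.13-fold, limma adjusted p = 0.00859). Hmgcs1 peaked at ZT23.0 in nono-/- (2.70-fold, limma adjusted p = 0.0145) and at ZT2.27 in wild type (2.67-fold, limma adjusted p = 0.0139). The nono-/- call of Hmgcs1 was lost with a second harmonic (adjusted p = 0.0511) and with a covariate for the exon share (adjusted p = 0.0916). Fdps peaked at ZT22.5 in nono-/- (3.41-fold, limma adjusted p = 0.000913) and at ZT22.8 in wild type (2.15-fold, limma adjusted p = 0.0248). Peaks of these 3 genes lay in the late dark phase or, for Hmgcs1 in wild type, just after lights on.

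Sqle passed in nono-/- (3.65-fold, peak ZT20.3, limma adjusted p = 0.00119), against 1.79-fold in wild type (limma adjusted p = 0.133). Cyp51 passed in nono-/- (1.87-fold, peak ZT20.7, limma adjusted p = 0.0181), against 1.29-fold in wild type (limma adjusted p = 0.422). Srebf2 went the other way, with 1.44-fold in nono-/- (limma adjusted p = 0.364) and 3.37-fold in wild type (peak ZT19.9, limma adjusted p = 0.000849). Idi1 passed in neither, with limma adjusted p-values of 0.163 and 0.715.

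The difference in rhythm itself was tested, and it passed for 0 of 7 genes and 0% of all genes in total RNA exons, with limma. At an unadjusted p under 0.05 there were 2 of 7, Srebf2 (p = 0.0305) and Cyp51 (p = 0.0102), beside 1210 of 11352 genes. A rhythm called in one genotype and not in the other is therefore no shown difference for Srebf2, Sqle or Cyp51.

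Some calls of rhythm rest on single times. Leaving out ZT8 or ZT22 took the call from Cyp51 in nono-/-. In wild type, leaving out ZT12 or ZT14 took it from Hmgcs1, leaving out ZT8, ZT12, ZT20 or ZT22 took it from Fdps, and leaving out ZT10 gave one to Sqle (adjusted p = 0.00863). Thus 2 of 7 genes passed in wild type without ZT12. A comparison of dark with light libraries was also made in place of the curve. Dark meant ZT14 to ZT22 with ZT0, at lights on, and light meant ZT2 to ZT12. It called 2 of 7 genes in nono-/-, where 5.35% of all genes passed, and 2 of 7 in wild type, where 12.3% passed.

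In nuclear introns 3 of 7 genes passed for rhythm in nono-/- (Insig1, Hmgcs1 and Fdps), where 32.0% of all genes passed, and 1 of 7 in wild type (Insig1), where 21.0% passed. Insig1 introns peaked at ZT19.6 in nono-/- (4.09-fold, limma adjusted p = 0.00284) and at ZT19.2 in wild type (5.04-fold, limma adjusted p = 0.000960). Hmgcs1 introns peaked at ZT21.0 in nono-/- (5.61-fold, limma adjusted p = 0.0106), and in wild type they had the same fitted peak time of ZT21.0 with an adjusted p of 0.0885 (3.32-fold). Fdps introns peaked at ZT19.5 in both, with 6.10-fold in nono-/- (limma adjusted p = 0.00219) and 3.05-fold in wild type (limma adjusted p = 0.0522).

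Fitted intron peaks came before the exon peaks of total RNA in both genotypes for Insig1, Hmgcs1 and Fdps. In nono-/- Idi1 had both at ZT20.7. Introns of Sqle and Cyp51 peaked there at ZT19.7 and ZT20.3, and their exons at ZT20.3 and ZT20.7. Several of these gaps were shorter than the 2 h between samples. These are fitted times, with no test. The intron rhythms of Hmgcs1 and Fdps in wild type, and of Idi1, Sqle and Cyp51 in nono-/-, had not passed. The difference in rhythm passed for 0 of 7 genes and 0% of all genes in nuclear introns, and with limma 0 of 7 genes and 811 of 12055 of all had an unadjusted p under 0.05. Without ZT6 or without ZT12, 5 of 7 genes passed in nono-/-. Without ZT2 or ZT10, 2 of 7 passed in wild type, Fdps being the gene gained.

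In nuclear exons 4 of 6 genes passed for rhythm in nono-/- (31.1% of all genes) and 1 of 6 in wild type (10.7%), with 0% called for the difference. In introns of total RNA 3 of 7 passed in nono-/- (14.4%) and 1 of 7 in wild type (11.1%), again with 0% called for the difference.

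**Figure D4:**
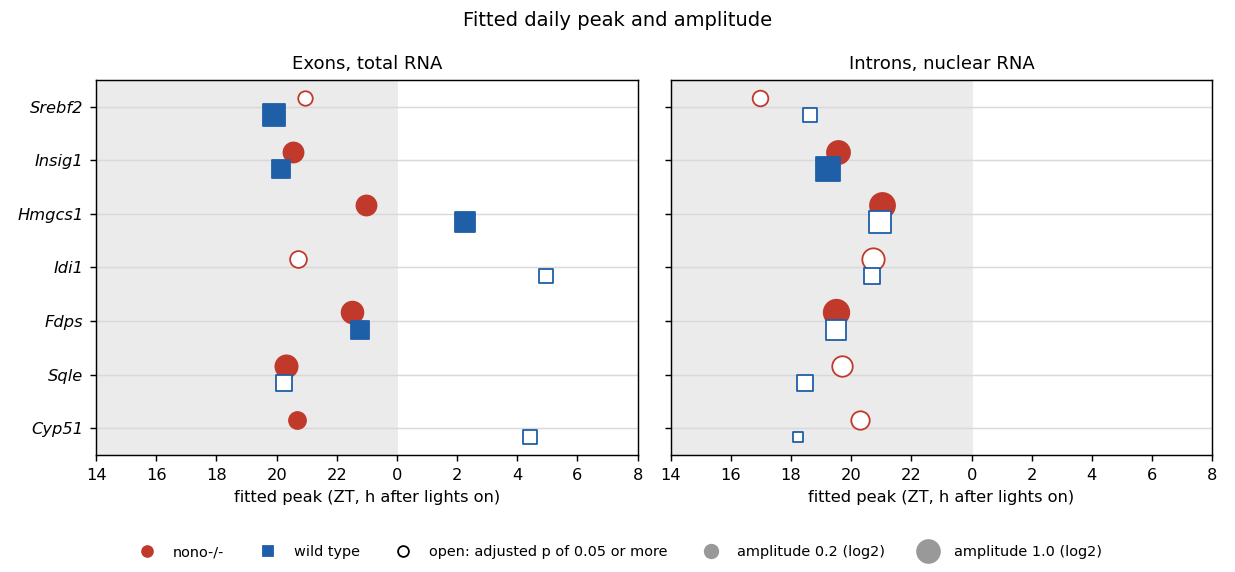
Fitted time of the daily peak (horizontal axis, ZT in hours after lights on) for the 7 genes (vertical axis) in exons of total RNA and introns of nuclear RNA; red circles are nono-/-, blue squares wild type, size shows the log2 amplitude, and open symbols have an adjusted p of 0.05 or more. Insig1 peaks from ZT19.2 to ZT20.5 in both panels and both genotypes, while Hmgcs1 exons peak at ZT23.0 in nono-/- and ZT2.27 in wild type.

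Because total and nuclear RNA came from the same liver pool, levels could be set against each other within a pool. The ratio of nuclear to total exon signal passed for 1 of 6 genes, Insig1, where 19.9% of 9871 genes passed, 10.9% higher and 9.02% lower in nono-/-. The log2 ratio of Insig1 averaged -1.79 ± 0.25 in nono-/- and -2.31 ± 0.43 in wild type (SD, n = 12 pools each), a difference of 0.52 ± 0.12 (log2 ± SE, limma adjusted p = 0.00853), 1.43-fold higher.

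It passed with any 1 time left out (0.44 to 0.58), but not with the values as deposited (0.28, adjusted p = 0.0915), under which 197 genes were called higher and 2387 lower in place of 1075 and 890, nor with the intron share (0.38, adjusted p = 0.642) or the exon share (0.44, adjusted p = 0.263) as a covariate. Of the other genes, which did not pass, Srebf2 differed by -0.01 ± 0.16 (limma adjusted p = 0.981) and Fdps by -0.56 ± 0.28 (limma adjusted p = 0.143). Fdps passed without ZT0 (adjusted p = 0.0330). The ratios of Hmgcs1, -3.24 in nono-/- and -3.52 in wild type, ranked low among all genes tested, at the percentiles 11.4 and 6.08, while those of Srebf2 ranked at 65.0 and 66.9.

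**Figure D5:**
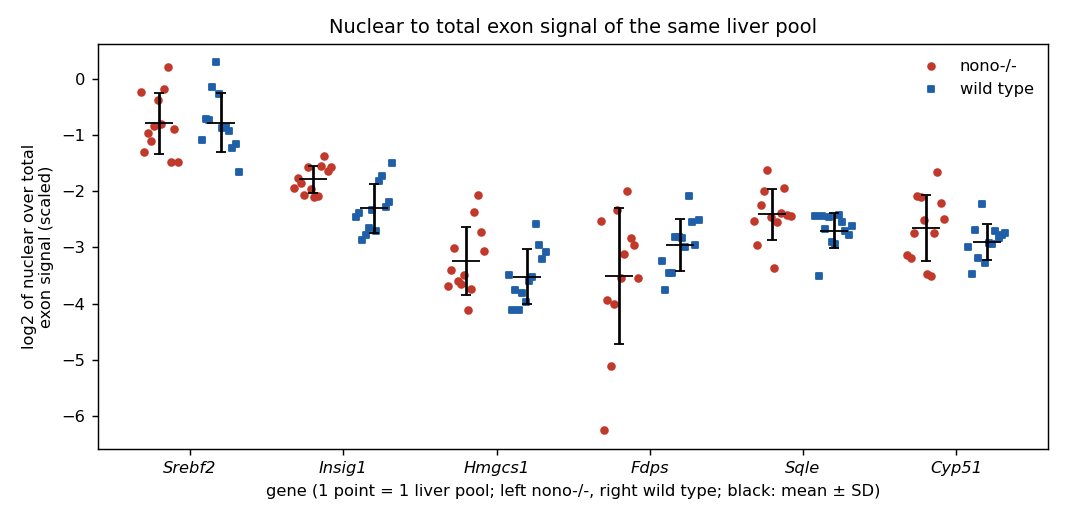
Log2 of scaled nuclear over total exon signal of the same liver pool (vertical axis) for the 6 genes tested (horizontal axis); red circles on the left are nono-/- pools, blue squares on the right wild type pools, black bars the mean ± SD of 12 pools. Insig1 averages -1.79 in nono-/- and -2.31 in wild type, and the Fdps ratios of nono-/- spread the widest.

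The ratio of total RNA exons to nuclear introns sets mature message against unspliced transcript. It passed for 0 of 7 genes, where 7.88% of 10492 genes passed, 2.83% higher and 5.05% lower in nono-/-. The differences were -0.79 ± 0.28 for Idi1 (log2 ± SE, limma adjusted p = 0.0764), -0.60 ± 0.27 for Hmgcs1 (limma adjusted p = 0.165), -0.36 ± 0.16 for Srebf2 (limma adjusted p = 0.147) and -0.35 ± 0.15 for Insig1 (limma adjusted p = 0.155). Cyp51 had -0.35 ± 0.23 (limma adjusted p = 0.342), Sqle -0.34 ± 0.22 (limma adjusted p = 0.324) and Fdps 0.20 ± 0.27 (limma adjusted p = 0.681). With each time as a block Idi1 (adjusted p = 0.0126) and Hmgcs1 (adjusted p = 0.0382) passed. The median over the 7 genes was -0.35, beside -0.0081 over all genes tested. It was -0.16 over the other enzymes of cholesterol synthesis and -0.18 over genes that process SREBP proteins. Genes of sterol uptake and traffic had -0.25, and those of LXR and sterol export or storage 0.03.

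Idi1 was the one gene of the 7 whose exon level in total RNA lay below its nuclear intron level, with a log2 ratio of -2.20 in nono-/- and -1.42 in wild type. That ratio ranked at the percentiles 0.334 and 0.753 of all genes tested. Within nuclear RNA alone, Idi1 exons averaged 0.343 FPKM in nono-/- and 0.174 in wild type, against 4.49 and 2.33 FPKM for its introns. Its exon values may be uncertain, since 30.52% of the 50-base stretches of its longest coding transcript also occur in transcripts of other genes. The part of this sharing in its ratios was not tested. Hmgcs1 was at the other end, at 4.50 in nono-/- and 5.10 in wild type.

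The members did not move as one block. Over the 24 total RNA exon libraries the log2 level of Sqle followed the mean of the other 6 with r = 0.917 (0.945 in the 12 nono-/- libraries and 0.862 in the 12 wild type libraries), and Fdps with r = 0.857. Over these 24 libraries Srebf2 was the least like the rest, with r = 0.350 (0.399 in nono-/- and 0.361 in wild type). In the 12 wild type libraries alone Idi1 was lower, with r = 0.327. In nuclear introns the r of Srebf2 was 0.589 (0.583 in nono-/- and 0.739 in wild type) and that of Sqle 0.915. These libraries share their times of day, and the correlations are descriptions.

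The 10 genes outside the 7 with the levels most like their mean in total RNA exons, by Pearson correlation over the 24 libraries, include the enzymes Fdft1 (squalene synthase, r = 0.912), Lss (lanosterol synthase, r = 0.884), Acat2 (r = 0.862), Nsdhl (r = 0.848), Mvd (r = 0.845) and Dhcr7 (r = 0.832). The remaining 4 were Dynll1 (r = 0.841), Pstpip2 (r = 0.823), Rpn1 (r = 0.820) and Mcfd2 (r = 0.807). In nuclear introns the r of the enzymes lay between 0.828 and 0.928, and that of the remaining 4 between -0.374 and 0.347.

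For the genes of the pathway lists, calls come from the model with a daily curve alone and were not followed under other settings. Among the other 16 enzymes of cholesterol synthesis none passed for genotype in total RNA exons, with a median of -0.11 beside -0.0035 over all genes tested, and the median over the 7 genes was -0.10. In nuclear exons 4 of 15 passed, beside 34.3% of all genes. Of these 1 rose, Ggps1 (0.29 ± 0.09, limma adjusted p = 0.0249). The other 3 fell: Mvd (-0.79 ± 0.27, limma adjusted p = 0.0299), Tm7sf2 (-0.79 ± 0.21, limma adjusted p = 0.00900) and Pmvk (-0.69 ± 0.23, limma adjusted p = 0.0248). In nuclear introns 0 of 16 passed, beside 17.9% of all genes. In total RNA introns 2 of 15 rose, Hsd17b7 (0.44) and Ebp (0.28), and 0 fell. There 7.11% of all genes rose and 8.87% fell, and 2 of 15 is to be read against these shares. A rhythm of total RNA exons was called for 12 of 16 in nono-/- (29.6% of all genes) and 8 of 16 in wild type (31.8%), and of nuclear introns for 10 of 16 in nono-/- (32.0%) and 4 of 16 in wild type (21.0%). The difference in rhythm passed for 0 of 16 in either measure with limma.

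Among the 5 genes that process SREBP proteins, Scap, the escort protein, fell in nono-/- total RNA exons (-0.43 ± 0.14, limma adjusted p = 0.0452) and in nuclear exons (-0.56 ± 0.16, limma adjusted p = 0.0130). Mbtps2, which encodes the protease of the second cut, rose in nuclear exons (0.51 ± 0.10, limma adjusted p = 0.00209) and in nuclear introns (0.30 ± 0.05, limma adjusted p = 0.00217), and the other 3 passed in none of these. Of the 8 tested genes of sterol uptake and traffic, 4 fell and none rose in total RNA exons, where 6.57% of all genes fell, among them Stard4, a sterol carrier (-0.26 ± 0.07, limma adjusted p = 0.0236), and Npc1, of lysosomal cholesterol export (-0.25 ± 0.08, limma adjusted p = 0.0441). The median of the 8 was -0.26. In total RNA exons the calls of Scap and Npc1 lie close to the threshold. So did that of Srebf2 (limma adjusted p = 0.0435), which was lost under several other settings. In nuclear exons 3 of 8 fell, where 18.5% of all genes did, among them Lrp1 (-0.75 ± 0.24, limma adjusted p = 0.0227).

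Of the 9 genes of sterol sensing by LXR, export and storage, none passed in total RNA exons. In nuclear exons 3 of 9 fell, beside 18.5% of all genes, the receptors Nr1h2 (-0.85 ± 0.22, limma adjusted p = 0.00852) and Nr1h3 (-0.82 ± 0.18, limma adjusted p = 0.00351) and Lcat, which esterifies cholesterol in plasma (-0.54 ± 0.16, limma adjusted p = 0.0151). Lcat also fell in nuclear introns (-0.64 ± 0.13, limma adjusted p = 0.00434).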

How the data were processed

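RNA-seq libraries of total and nuclear RNA were made from the same liver pools with a stranded kit that removes ribosomal RNA, per the labels' protocols. Per the submitters' processing notes, STAR 2.4.0k and FastQC 0.11.2 were used with the build mm10. The authors computed FPKM with HOMER for exons and for introns, per gene, per the file headers, with isoforms condensed to 1 entry; no strand option stands there, so a read in a region where 2 genes run on opposite strands cannot be assigned to either, and Srebf2, which holds Mir33 on its own strand, is the one gene of the 7 that overlaps another of the tables. The sources used here give no version of HOMER.

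All 96 columns were used, mapped to samples by their names. FPKM steps gave whole reads within 0.1 read for 100% of the low values in every library and depths of 9.91 to 28.94 M reads; the tests stayed on FPKM, and depth describes counting error only. No pair of libraries held identical values. Libraries were scaled by the median, over genes, of their ratio to the geometric mean of all libraries. Values were taken as log2(FPKM + 0.1) for exons and log2(FPKM + 0.05) for introns, so changes of low genes are understated. Exon values with a mean under 0.5 FPKM and intron values with a mean under 0.1 FPKM were left out, and the rest tested with limma 3.58.1 in R 4.3.3 with a mean-variance trend (without it for ratios), in a model of genotype plus a 24 h cosine curve (a cosine and a sine term) for each genotype. Spread is the residual around these curves, since each time had 1 pool per genotype, so the p-values rest on differences between pools of different times. Adjusted p-values are Benjamini-Hochberg values over all genes tested, with a threshold of 0.05. The code of the fit was run on simulated data with known changes. Its noise was drawn independently for each library, without the shared deviations of a time described below, so it does not check the p-values of these data. Motifs and shared 50-base stretches (GENCODE transcripts) were found in Python 3.11.15, and figures drawn with matplotlib 3.10.9.

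Libraries of the same time deviated together in both genotypes: the correlation of their deviations from group means exceeded 0.1 for 12 of 12 times in nuclear introns (0.26 to 0.654), total RNA introns (0.144 to 0.542) and total RNA exons (0.144 to 0.563), and for 11 of 12 in nuclear exons. The pairing comes from the time on the labels, and a fit with each time as a block was run beside the curve. The other alternatives were other pseudocounts, filters and scalings, a second harmonic, the intron or exon share of the library as a covariate, dark against light libraries, and each time left out. The rule named the 7 genes, the 10 genes most like their mean, and the called members of 4 pathway lists, at most 4 each way. The members and lists were chosen with earlier results of these data known. Some genes of the list of sterol uptake and traffic are counted but not reported by name here.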

Additional observations from a re-analysis of the deposited data

Results flagged for a closer look

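The ratio of nuclear to total exon signal of Insig1 differed between the genotypes by 0.52 ± 0.12 (log2 ± SE, limma adjusted p = 0.00853), with mean log2 ratios of -1.79 in nono-/- and -2.31 in wild type (n = 12 pools each). It is listed here because 2 fractions of the same pools gave different genotype effects, 0.48 in nuclear exons and -0.04 in total RNA exons, and the test of that difference passed. Srebf2, whose effects were -0.50 in nuclear exons and -0.49 in total RNA exons, gave a difference of -0.01. The Insig1 call did not hold with the values as deposited (0.28, adjusted p = 0.0915), and the part of library composition in it was not tested beyond the 2 covariate fits.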

How the results depend on the processing

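Genes called among the 7 changed as follows, and unless a value above says otherwise the cause was not tested. For genotype in total RNA exons (1 called), 0 passed with no filter, 0 with no scaling, 0 with the intron share and 2 with the exon share as a covariate, and 0 to 1 with 1 time left out. In nuclear exons (3), 0 passed with either share and 2 to 3 with 1 time left out. In nuclear introns (0), 1 passed with the larger pseudocount, 1 with a second harmonic, 2 with each time as a block and 0 to 1 with 1 time left out. In total RNA introns (0), 1 passed with no scaling, 1 with a second harmonic, 2 with the block and 0 to 1 with 1 time left out. For rhythm in total RNA exons, nono-/- (5) gave 2 with dark against light and 4 to 5 with 1 time left out, and the Hmgcs1 call was lost with a second harmonic and with the exon share, and wild type (4) gave 2 with a second harmonic, 2 with dark against light and 2 to 5 with 1 time left out. For rhythm in nuclear introns, nono-/- (3) gave 6 with a second harmonic, 5 with dark against light and 3 to 5 with 1 time left out, and wild type (1) gave 2 with the larger pseudocount, 2 with dark against light and 1 to 2 with 1 time left out. The nuclear to total ratio (1) gave 0 with no scaling or with either share and 1 to 2 with 1 time left out, and the exon to nuclear intron ratio (0) gave 1 with a second harmonic and 2 with the block. The block changed no other call. Of the 10 genes most like the members, 3 were among the top 10 in nuclear introns. Of 826 values of single genes under alternatives other than leaving out a time, 783 kept their side of the threshold, 23 lost a call, 20 gained one and 0 changed sign after a call.

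Counts over all genes moved by more than 1.5 times too. With the intron share as a covariate, genotype calls were 23 in total RNA exons, 1048 in nuclear exons, 965 in nuclear introns and 26 in total RNA introns, in place of 1256, 3603, 2163 and 1506, and the ratios gave 5 and 7 in place of 1965 and 827. With the exon share they were 927 in nuclear exons, 785 in nuclear introns, 778 in total RNA introns, and 3 and 23 for the ratios. With no scaling total RNA introns gave 3546, and with the stricter filter nuclear exons gave 1884, total RNA introns 741 and the nuclear to total ratio 1195, the last being 1237 with the block. With 1 time left out the counts ran from 734 to 1300 in total RNA exons, 2158 to 4569 in nuclear exons, 1124 to 2950 in nuclear introns, 770 to 1846 in total RNA introns, and 708 to 3441 and 316 to 1252 for the ratios. Rhythm calls fell to 2119 (wild type, total RNA exons), 1892 and 1219 (nono-/- and wild type, nuclear introns) with a second harmonic, and to 607 and 1392 (nono-/- and wild type, total RNA exons) and 2061 (nono-/-, nuclear introns) with dark against light. Idi1 in nuclear exons held as few as 3 reads per library. Its introns in the same libraries held 86 to 1068 reads in nono-/- and 31 to 313 in wild type. Why its exons held so few reads was not tested.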
